A study of Homo sapiens with 2 samples.

Results

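The genes described here carry iron into the liver cell, store it, export it, and set the hormone that limits its export. They were chosen by name: TFRC, TFR2 and SLC11A2 for uptake, FTH1 and FTL for storage, SLC40A1 for export, and HAMP, HFE, TMPRSS6 and BMP6 for hepcidin and its regulators. All 10 were found among the 60623 gene entries, and all 10 were among the 20431 genes compared, which had 10 or more counts over the pair of libraries. RNA was sequenced from HepG2 cells, a wild-type human line from a hepatocellular carcinoma, after poly(A) selection and stranded library preparation. Both cultures received 1 mM free fatty acids (FFA), oleic and palmitic acid at 2 parts to 1 bound to bovine serum albumin, for 24 h. One of them also received 9-cis-retinoic acid, here 9-cis-RA, at 10 μM for 24 h. It is an agonist of retinoid X receptors that also activates retinoic acid receptors. According to the methods, the solvent DMSO was matched across groups, so the comparison asks what 9-cis-RA adds to lipid-loaded cells. The paper's results call this co-treatment, whereas its methods place 9-cis-RA after the FFA, so the order of the treatments is not certain. No library without FFA was analysed here.

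Each group was a single library, and both carried the same batch label. The libraries held 60821539 counts (FFA) and 57669670 counts (FFA + 9-cis-RA). No spread between cultures could be measured, so no p-value, SD or SE is given. The 95% intervals below cover counting error only, and they compare 2 libraries and not the conditions. They are exact, except those for ratios between genes, which are normal approximations. CYP26A1, a retinoic acid hydroxylase that is a known target of retinoic acid receptors, had 4 counts with FFA alone against 709 with 9-cis-RA added. All 9 hepatocyte and hepatoma markers were counted, with a summed level of 18957 with FFA alone and 16398 with 9-cis-RA added, in counts scaled to the library total (CPM). Almost all of it was SERPINA1, AFP, APOB, ALB and APOA1. TTR was low at 5.61 and 4.82 CPM, as were GPC3 at 12.6 and 8.06 and FGB at 26.4 and 48.9. The interval of the log2 fold change lay above 0 for 4 of the 9 markers and below 0 for 5. The macrophage list summed to 0.723 and 0.711 CPM with PTPRC at 0, and the erythroid list to 0.0164 and 0.0520 CPM with HBB and ALAS2 at 0. The endothelial list summed to 4.32 and 2.77 CPM, the stellate cell list to 0.674 and 0.416 CPM with DCN at 0, and the cholangiocyte list to 357 and 330 CPM, almost all of it EPCAM and SOX9.

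Iron circulates bound to transferrin, which enters cells through transferrin receptor 1, the product of TFRC. Inside the cell, iron that is not used is held in ferritin, a shell of heavy (FTH1) and light (FTL) chains. When iron is scarce, iron regulatory proteins bind hairpins called iron-responsive elements (IREs) in messenger RNAs: in a 5′ untranslated region (UTR) they block translation, and in the 3′ UTR of TFRC they stabilise the transcript. The liver also sets iron supply for the whole body through hepcidin (HAMP), a peptide hormone that binds ferroportin (SLC40A1), the cellular iron exporter, and causes its loss. BMP6 drives HAMP through SMAD proteins, HFE and TFR2 take part in iron sensing upstream of HAMP, and the protease TMPRSS6 restrains the pathway. In liver, BMP6 comes mainly from endothelial cells, and HAMP, TFR2 and TMPRSS6 are typical hepatocyte genes.

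The IREs are shown because TFRC carries them in its 3′ UTR, and both ferritin genes and SLC40A1 in the 5′ UTR. The transcripts of GENCODE release 29 (GRCh38) were searched for an unpaired C, 5 paired bases with G-U pairs allowed, and a loop of CAGTGN whose last base was not G. Each window is 29 bases on the transcript strand, with the unpaired C and the loop in capitals. The pattern stood in the 5′ UTR of FTH1 (7 of 8 coding transcripts), FTL (1 of 1) and SLC40A1 (1 of 5), and 4 times in the 3′ UTR of TFRC (3 of 4 coding transcripts).
FTH1, chr11:61967574-61967602, minus strand: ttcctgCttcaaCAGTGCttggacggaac
FTL, chr19:48965335-48965363, plus strand: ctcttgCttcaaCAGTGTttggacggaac
SLC40A1, chr2:189580661-189580689, minus strand: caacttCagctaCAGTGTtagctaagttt
TFRC, chr3:196050979-196051007, minus strand: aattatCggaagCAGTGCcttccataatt
TFRC, chr3:196050575-196050603, minus strand: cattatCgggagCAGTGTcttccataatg
TFRC, chr3:196050510-196050538, minus strand: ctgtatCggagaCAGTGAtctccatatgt
TFRC, chr3:196050463-196050491, minus strand: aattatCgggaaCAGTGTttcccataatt

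The windows of FTH1 and FTL were identical at 26 of 29 bases, whereas the SLC40A1 window shared 13 bases with that of FTH1 and 14 with that of FTL. The TFRC windows shared 18 to 25 of 29 bases with each other, and their loops lay within 516 bases of a 3′ UTR of 2661 bases. Of 19669 coding genes searched, 26 (0.132%) held the pattern in a 5′ UTR and 104 (0.529%) in a 3′ UTR. The 4 of these 10 genes that held it were known carriers of IREs, so these shares are no test of them. No match was found in SLC11A2, TFR2, HAMP, HFE, TMPRSS6 or BMP6, which says only that these letters and this pairing are not there. An isoform of SLC11A2 is known to carry an IRE, and the pattern searched here did not find it.

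**Figure D1:**
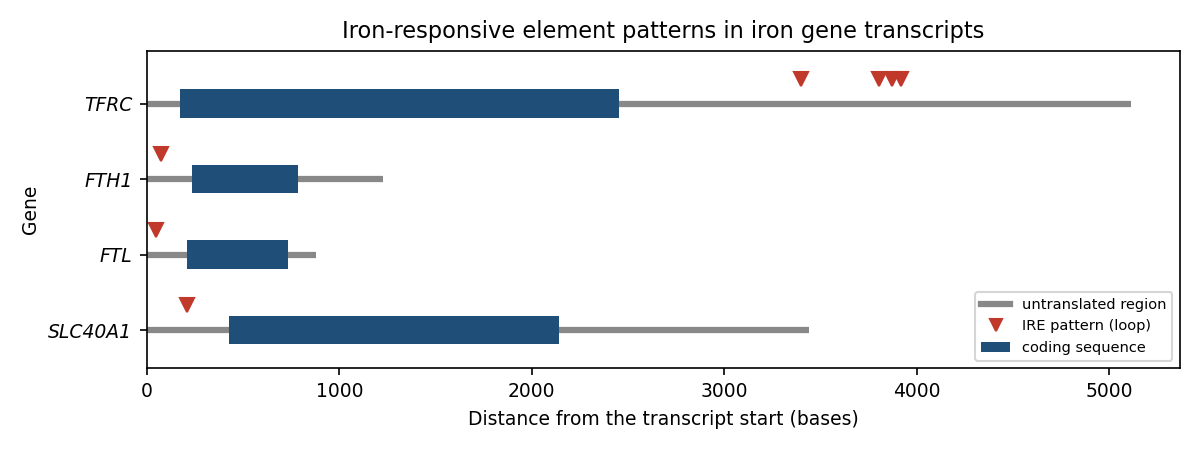
Coding sequence (blue) and untranslated regions (grey) of 1 GENCODE 29 transcript for each gene with an IRE pattern, with distance from the transcript start in bases on the x axis and genes on the y axis. The 4 triangles of TFRC lie after the coding sequence, and the single triangle of FTH1, FTL and SLC40A1 lies before it.

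The levels of the 10 genes spanned 4 orders of magnitude. Between genes, levels were compared per length, as FPKM (fragments per kilobase of exon, scaled to the library total) computed from the counts and the exon lengths in the files. In the FFA library the order was FTL (10546 FPKM), FTH1 (1432), TFRC (61.5), SLC40A1 (14.7), SLC11A2 (8.42), TFR2 (6.94), TMPRSS6 (1.95), HFE (1.62), BMP6 (0.795) and HAMP (0.500), and no counting intervals of neighbours overlapped. In the FFA + 9-cis-RA library, HAMP stood above BMP6 at a ratio of 1.05 and TMPRSS6 above HFE at a ratio of 1.07, and the intervals of both pairs overlapped. FTL ranked 6th of all genes by count in both libraries and FTH1 ranked 20 in both. Together the 10 genes took 1.27% of all counts with FFA alone and 1.17% with 9-cis-RA added, most of it ferritin.

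Lengths mattered most for HAMP. The files sum its exons to 2862 bases, of which 1 exon of 2624 bases, 91.7% of the total, runs through both introns, while the longest coding transcript in GENCODE 29 has 652 bases. With that length, a choice made after seeing the data, HAMP reached 2.19 FPKM with FFA alone and 3.75 with 9-cis-RA added, above HFE at 1.74 and 1.57. The same choice put SLC11A2 (19.2 and 19.4 FPKM) above SLC40A1 (18.5 and 17.0 FPKM).

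**Figure D2:**
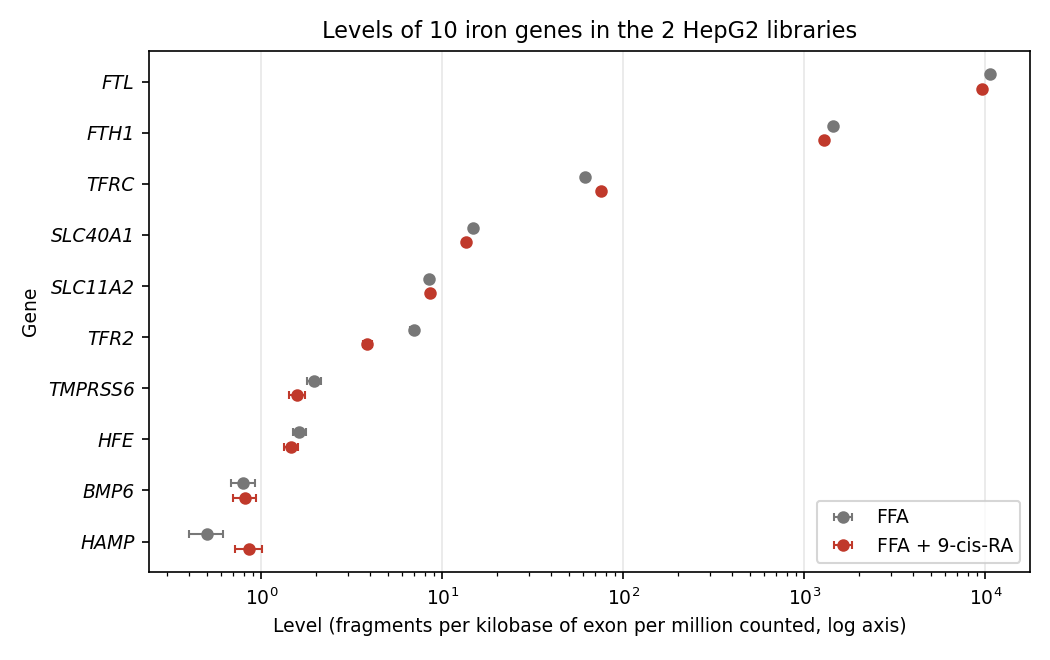
Level of each gene in FPKM (x axis, log scale) in the FFA library (grey) and the FFA + 9-cis-RA library (red), ordered on the y axis by the FFA level. Bars are exact 95% counting intervals, hidden by the symbol for the higher genes. TFRC and HAMP lie to the right in the FFA + 9-cis-RA library, and TFR2 to the left.

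Fold changes are log2 ratios of normalised counts plus 1, after scaling each library by its DESeq2 size factor, whereas levels in FPKM are scaled by total counts. In bulk RNA such as this, fewer cells that express a gene and less RNA per cell cannot be told apart. Of the 10 genes, 0 passed a log2 fold change of 1 in size, where 8.28% of all genes compared did. The counting interval lay above 0 for 2 of them (TFRC and HAMP), below 0 for 6, and included 0 for SLC11A2 and BMP6. Of all genes compared, 22.5% had an interval above 0 and 25.7% below 0. Because well-counted genes have narrow intervals, a second background is the 13306 genes with a normalised count of at least 100 in a library. HAMP, at 86.2 and 142 normalised counts, entered that set only through the library in which it was higher, so it is not read against it. Of the 13306 genes, 2.06% passed 1 in size, 30.9% had an interval above 0 and 33.5% below 0. The median log2 fold change of the 10 genes was −0.18 (−0.09 with the trend of fold change on exon length removed), beside −0.02 over all genes compared and −0.0043 over the well-counted genes, whose middle 50% lay between −0.18 and 0.14.

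**Figure D3:**
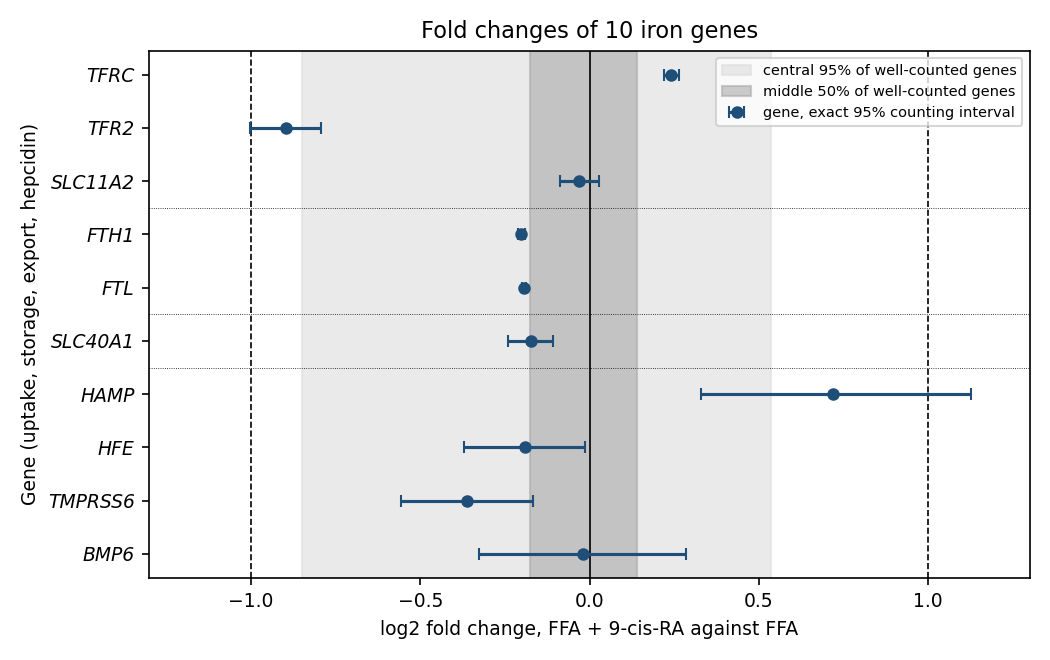
The log2 fold change of each gene, FFA + 9-cis-RA against FFA (x axis), with exact 95% counting intervals as bars and genes on the y axis grouped by role. Grey bands give the middle 50% and the central 95% of 13306 well-counted genes and dashed lines a log2 fold change of 1 in size. TFR2 at −0.90 lies outside the wider band, and no point lies beyond a dashed line. HAMP, with an interval from 0.33 to 1.13, is not read against the bands.

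With 9-cis-RA added, TFRC was higher and TFR2 lower, whereas SLC11A2 was nearly equal in both. TFRC (ENSG00000072274, chr3:196027183-196082096) had 29158 counts with FFA alone against 33821 with 9-cis-RA added. Its log2 fold change was 0.24 (95% counting interval 0.22 to 0.26), or 18.2% higher. Its place among all genes by count moved from 221 to 164.

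TFR2 (ENSG00000106327, chr7:100620416-100642779), a second transferrin receptor expressed mainly in hepatocytes and erythroid precursors, was counted 2139 and 1126 times. Its log2 fold change was −0.90 (−1.003 to −0.79), 46.3% lower, the furthest from 0 of the 10 genes. At the 6.22 percentile of all genes compared, it was near the threshold of 1 without passing it. The counts of TFRC over those of TFR2 were 13.6 with FFA alone and 30.0 with 9-cis-RA added, a log2 difference of 1.14 (1.03 to 1.25). This ratio does not depend on how the libraries are scaled. As a share of both receptors' counts, TFR2 made up 6.83% (exact interval 6.56 to 7.12) and 3.22% (3.04 to 3.41).

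SLC11A2 (ENSG00000110911, chr12:50979401-51028566) encodes DMT1, which moves ferrous iron across the endosomal membrane. It was counted 5066 and 4866 times, and its log2 fold change of −0.03 (−0.088 to 0.027) became 0.02 with total counts as the scale. No difference in SLC11A2 was detectable at this depth.

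Both ferritin chains were slightly lower in the FFA + 9-cis-RA library, by nearly the same proportion. FTH1 (ENSG00000167996, chr11:61959718-61967634), the chain with ferroxidase activity, overlaps BEST1 on the opposite strand over 63.2% of its exon length, and counting used strand. FTH1 had 174492 counts with FFA alone against 148863 with 9-cis-RA added, which gave a log2 difference of −0.20 (−0.21 to −0.19). FTL (ENSG00000087086, chr19:48965309-48966879), the chain that favours mineral formation, was counted 558703 and 479498 times, for a log2 fold change of −0.19 (−0.20 to −0.19). Ferritin took 1.21% of all counts in the FFA library (exact interval 1.203 to 1.208) and 1.09% in the other (1.087 to 1.092).

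The balance of the 2 chains was nearly equal in the libraries. FTL counts were 3.20 times those of FTH1 with FFA alone and 3.22 times with 9-cis-RA added, a log2 difference of 0.0086 (−0.0028 to 0.020). As a share of ferritin counts, FTL made up 76.2% (76.1 to 76.3) and 76.3% (76.2 to 76.4). TFRC over FTH1, by contrast, was 0.167 and 0.227, a log2 difference of 0.44 (0.42 to 0.47), and TFRC over FTL was 0.0522 and 0.0705, a log2 difference of 0.43 (0.41 to 0.46). These ratios compare genes of unlike exon length, and their intervals leave that out. With the trend of fold change on exon length removed, the fold changes were 0.21 for TFRC, −0.11 for FTH1 and −0.07 for FTL. The differences of TFRC from both chains were then smaller, and the chains lay slightly further apart.

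The size of the ferritin differences depended on the processing. Both transcripts are short, and with the trend of fold change on exon length removed they came to −0.11 for FTH1 and −0.07 for FTL. Their many processed pseudogenes could also share reads with them, and reads that map to several places were not counted. The 25 FTH1P entries held 1968 and 1634 counts, 1.13% and 1.10% of FTH1, with FTH1P7 the most counted (751 and 590). The 16 FTLP entries held 2036 and 1672 counts, 0.364% and 0.349% of FTL, with FTLP3 the most counted (1883 and 1481). As sums, the FTH1P entries had a log2 fold change of −0.24 (−0.34 to −0.15) and the FTLP entries −0.26 (−0.35 to −0.16), the latter mostly FTLP3. Not every entry was lower. FTLP14, counted 111 and 154 times, had 0.50 (0.14 to 0.87), and FTH1P2 had 0.21 (−0.15 to 0.57). Because the entries could hold reads of the parent genes, the direction of the sums is not independent of them. How many ferritin reads were lost to multiple mapping was not tested.

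SLC40A1 (ENSG00000138449, chr2:189560579-189583758), the only known cellular iron exporter, had 3870 counts with FFA alone against 3365 with 9-cis-RA added. Its log2 fold change was −0.17 (−0.24 to −0.11), or 11.4% lower. Set beside the IREs printed above, the 3 genes with the pattern in the 5′ UTR had fold changes between −0.20 and −0.17, and TFRC, with the pattern in its 3′ UTR, had 0.24. With the length trend removed, these became −0.11 for FTH1, −0.07 for FTL, −0.15 for SLC40A1 and 0.21 for TFRC. The 6 genes without a match ranged from −0.90 to 0.72. Over all genes compared, the 22 with the pattern in a 5′ UTR, these 3 included, had a median log2 fold change of −0.03 and ranged from −0.61 to 0.40, with an interval below 0 for 11 and above 0 for 5. The 81 with the pattern in a 3′ UTR had a median of 0.04 and ranged from −1.16 to 1.69, with an interval above 0 for 34 and below 0 for 19. For all genes compared, the shares were 22.5% above 0 and 25.7% below 0, and for the well-counted genes 30.9% and 33.5%. Whether the pattern bears on the fold changes was not tested. These data measure RNA, so translation of ferritin and ferroportin was not observed.

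Of the 4 hepcidin genes, HAMP alone had an interval above 0, and it had the fewest counts of the 10 genes in the FFA library. HAMP (ENSG00000105697, chr19:35280716-35285143) had 87 counts with FFA alone against 141 with 9-cis-RA added. Its log2 fold change was 0.72 (0.33 to 1.13), or 65.2% higher, at the 94.4 percentile of all genes compared. With so few counts the interval was wide and reached past 1. The counted exon of 2624 bases runs through both introns of HAMP, so these counts can include unspliced RNA. Whether the difference lies in spliced HAMP was not tested.

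BMP6 (ENSG00000153162, chr6:7726099-7881728), the ligand, was counted 183 and 177 times, with a log2 fold change of −0.02 (−0.33 to 0.29), which was 0.03 with total counts as the scale. No difference in BMP6 was detectable at this depth. All 4 markers on the endothelial list had counts, summing to 4.32 and 2.77 CPM, with PECAM1 at 52 and 29. The cultures were of the HepG2 line alone, so these are counts in a hepatoma line. What sets BMP6 in these cells was not tested. TMPRSS6 (ENSG00000187045, chr22:37065436-37109713), which encodes matriptase-2, was counted 503 and 384 times. Its log2 fold change was −0.36 (−0.56 to −0.17), 22.2% lower. HFE (ENSG00000010704, chr6:26087281-26098343) encodes a class I-like protein that binds transferrin receptor 1, and it is the gene most often mutated in hereditary haemochromatosis. It was counted 559 and 480 times. Its log2 fold change was −0.19 (−0.37 to −0.014), and with TMM or total-count scaling the interval included 0.

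Around these 10 genes, 67 others of iron and heme handling were examined in 6 lists, of which 62 had enough counts. The interval lay above 0 for 26 of them, below 0 for 16 and included 0 for 20, and only 2 passed 1 in size. The shares over all genes compared were 22.5%, 25.7% and 8.28% for above 0, below 0 and past 1, and those over the well-counted genes 30.9%, 33.5% and 2.06%. Neither background was matched to these genes on counts, and genes with more counts have narrower intervals. The shares given beside each list below are therefore no test of it. The transferrin cycle and other uptake genes were the list with the lowest median. Of its 10 genes compared, 7 had an interval below 0 (25.7% of all genes and 33.5% of well-counted genes did) and 1 above 0, with a median of −0.28. TF, transferrin itself, was counted 44975 and 38699 times, with a log2 fold change of −0.19 (−0.21 to −0.17). STEAP3, the endosomal ferrireductase that works beside DMT1, was counted 6346 and 4824 times (−0.37, −0.42 to −0.31). HP, haptoglobin, which binds free haemoglobin, was counted 2346 and 1273 times (−0.85, −0.95 to −0.76), though HP shares sequence with its near copy HPR. LRP1, the receptor that takes up heme bound to hemopexin, had a log2 fold change of 0.05. TF and HP are secreted liver proteins, and the secreted proteins among the hepatocyte markers did not share 1 direction. ALB had 186609 and 112866 counts and AFP 273242 and 134862, while APOB, APOA1 and SERPINA1 had log2 fold changes of 0.05, 0.04 and 0.04, and FGB had 0.84. Without ALB and AFP, the other 7 markers summed to 11396 and 12102 CPM. Among these 7, TTR, GPC3 and HNF4A had log2 fold changes of −0.27, −0.69 and −0.14. The part of these markers in the iron genes was not tested.

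The iron regulatory proteins and ferritin turnover genes lay close to 0. All 6 compared were within 0.2 of it on the log2 scale, with a median of 0.07. ACO1, which encodes iron regulatory protein 1, was counted 3986 and 4320 times, with a log2 fold change of 0.14 (0.081 to 0.21). IREB2, which encodes iron regulatory protein 2, was counted 4551 and 4504 times (0.01, −0.047 to 0.072). NCOA4, the receptor that delivers ferritin to lysosomes, was counted 15982 and 17670 times (0.17, 0.14 to 0.20). PCBP1, a chaperone that loads iron into ferritin, was counted 42194 and 38922 times (−0.09, −0.11 to −0.069), and its sign turned with the length trend removed (0.01).

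Ferroxidases were scarcely counted. HEPHL1, a paralogue of hephaestin, was counted 11 and 47 times, for a log2 fold change of 2.03 (1.15 to 3.22). CP, ceruloplasmin, was counted 32 and 50 times (0.65, 0.0028 to 1.36). HEPH, hephaestin, named after its values were seen, was counted 10 and 6 times (−0.63, −2.45 to 0.89). In the FFA + 9-cis-RA library, HEPHL1 stood at 0.140 FPKM and CP at 0.123.

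In the hepcidin signalling list, 9 of 18 genes compared had an interval above 0 (22.5% of all genes and 30.9% of well-counted genes did). For 3 it lay below 0 (25.7% and 33.5% did), and the median was 0.19. ID1, a direct target of BMP and SMAD signalling as HAMP is, was counted 17154 and 31936 times, for a log2 fold change of 0.92 (0.90 to 0.95) that reached 1.04 with the length trend removed. SMAD7, an inhibitory SMAD induced by the same pathway, was counted 4880 and 5816 times (0.28, 0.23 to 0.34). SMAD1, SMAD4 and SMAD5, the transducers between the BMP receptors and HAMP, which are named after their values were seen, each had a log2 fold change of 0.26. Not every gene of the pathway was higher. SMAD6, another inhibitory SMAD and also named after its value was seen, had −0.05 (−0.14 to 0.038). HJV, the BMP co-receptor hemojuvelin, had 13 counts with FFA alone and 2 with 9-cis-RA added, which gave −2.20 on the log2 scale (−5.86 to −0.53). ERFE, the erythroid hormone erythroferrone that lowers hepcidin, was counted 269 and 200 times (−0.40, −0.67 to −0.13). Also on the list and named after their values were seen, IL6R, IL6ST and STAT3 had log2 fold changes of −0.06, −0.02 and 0.01. SOCS3, named in the same way, was counted 80 and 137 times (0.80, 0.40 to 1.22). Whether any gene of this list bears on HAMP was not tested.

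Among heme genes, 8 of 15 had an interval above 0, against the same 22.5% and 30.9%. For 3 it lay below 0, against 25.7% and 33.5%, and the median was 0.11. HMOX1, the inducible heme oxygenase that frees iron from heme, was counted 7806 and 14703 times, with a log2 fold change of 0.94 (0.90 to 0.98), 1.02 with the length trend removed. UROD, an enzyme of heme synthesis, was counted 11533 and 8994 times (−0.33, −0.37 to −0.29). In the mitochondrial list, 3 of 10 had an interval above 0 and 2 below 0, with a median of 0.03. These counts stand beside the same shares, 22.5% and 30.9% above 0 and 25.7% and 33.5% below 0. NFS1, the cysteine desulphurase of iron-sulphur cluster assembly, was counted 3995 and 4738 times (0.27, 0.21 to 0.33).

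**Figure D4:**
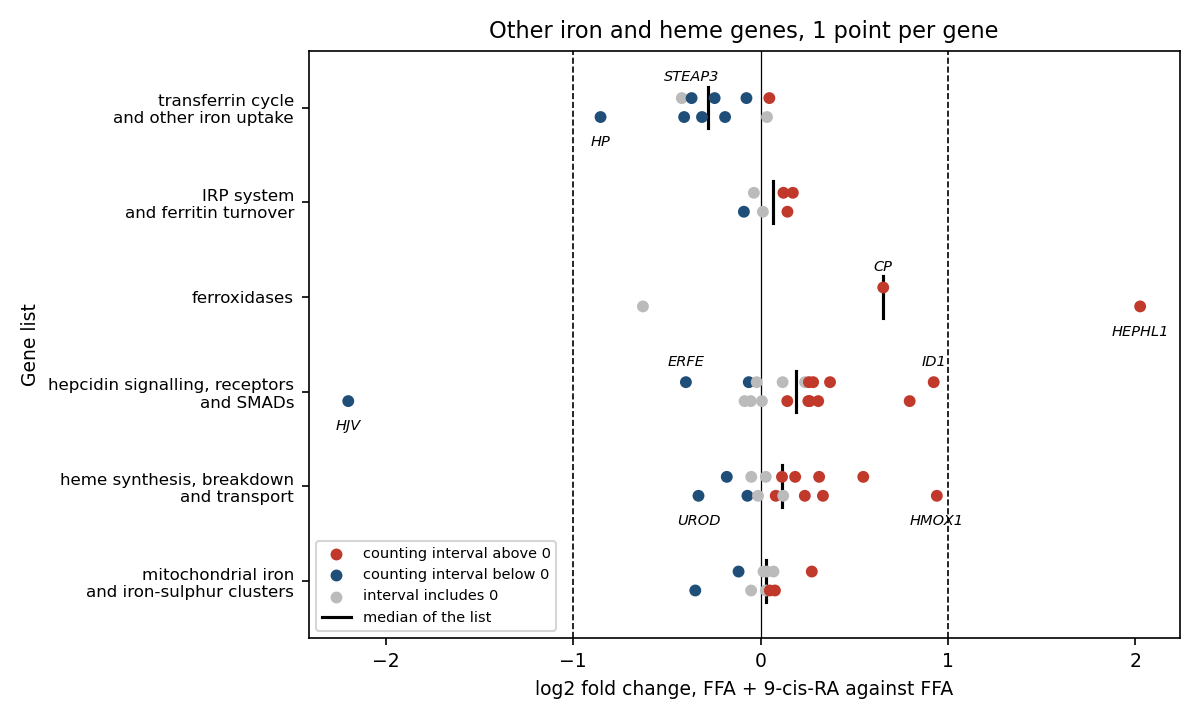
The log2 fold change of 62 other iron and heme genes (x axis), 1 point per gene, in 6 lists (y axis), coloured by whether the 95% counting interval lay above 0, below 0 or included 0. Black bars are the list medians, from −0.28 for transferrin and uptake to 0.65 for the 3 ferroxidases, and HEPHL1 and HJV are the only points beyond the dashed lines at 1 in size.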

How the data were processed

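The deposited values are raw counts of fragments for each gene. The authors made them with featureCounts (version 2.0.1), which kept pairs whose ends both mapped and used the reverse-strand setting, 2. Reads at several places or in several genes were not counted. The submitters' processing notes name GRCh38 and DESeq2, and the aligner and annotation release are not given in the sources used here. From these counts, size factors came from DESeq2 version 1.42.0 (R version 4.3.3). Fold changes on the log2 scale used a pseudocount of 1 and a threshold of 1, for genes whose counts in both libraries summed to 10 or more. The pseudocount understates changes of low genes. Exact 95% Clopper-Pearson intervals used scipy version 1.17.1, and levels had exact Poisson intervals. Intervals of ratios between genes were normal approximations on the log scale. Alternatives were TMM factors (edgeR version 4.0.16), total counts, a pseudocount of 0.1 or 5, no minimum or one of 50 counts, protein-coding genes alone, a loess trend on exon length (span 0.3) and another length for levels.

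The members and lists were chosen with earlier results of these data known. Of the other iron genes, those past the threshold, the highest and lowest of each list with a normalized count of at least 100, and TF, ACO1, IREB2, NCOA4, CP, HJV, ID1, SMAD7, HMOX1 and STEAP3 are named. Of these, 1 gene is not reported here. Opposite-strand overlap was 63.2% of FTH1 exons, with BEST1. Counts of 20427 genes were simulated for this comparison from a Poisson model, with no variation between cultures. Intervals held the true value for 95.6% of unchanged genes, 97% at a log2 fold change of 0.3 and 92% at 1.5. This checks the calculation only, since the intervals rest on the same counting model.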

Additional observations from a re-analysis of the deposited data

How the results depend on the processing

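With TMM, total counts, a pseudocount of 0.1 or 5, the length trend removed, no count minimum, at least 50 counts or the whole interval required past 1, 0 of the 10 genes passed a log2 fold change of 1. The median of the 10 genes was −0.16 with TMM, −0.13 with total counts and −0.09 with the length trend removed. The median of all genes was −0.02 with DESeq2 size factors, −0.0002 with TMM and 0.03 with total counts. TFRC ranged from 0.21 to 0.29, TFR2 from −0.90 to −0.85 and HAMP from 0.69 to 0.78 over these settings, FTH1 from −0.20 to −0.11 and FTL from −0.19 to −0.07. SLC11A2 and BMP6 changed sign. The lower genes numbered 5 in place of 6 with TMM and with total counts, HFE being the one lost. Over all genes, 1691 passed the threshold. That count was 935 with a pseudocount of 5, 6264 with no count minimum, 514 with at least 50 counts, 716 among protein-coding genes and 269 with the whole interval past 1. With 1 library per group, no library could be left out. No paired analysis was possible because each group is 1 library and no test was made.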
